A study of Rattus norvegicus with 17 samples.

Results

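The genes described here encode the secreted proteoglycans of the brain's extracellular matrix and the proteins that assemble them into perineuronal nets. They were chosen by symbol, and 10 of the 34322 genes counted belong to the set: the lecticans Acan, Bcan, Ncan and Vcan, the link proteins Hapln1, Hapln2 and Hapln4, the tenascins Tnr and Tnc, and the hyaluronan synthase Has3. Their mRNA was measured by RNA sequencing in the hippocampus of 17 adolescent Long-Evans rats of both sexes, killed 36 to 38 days after birth. Ethanol-exposed (ET) rats came from a dam fed a liquid diet with ethanol from gestational day 0 to 20, pair-fed (PF) rats from a dam given a liquid diet without ethanol in amounts yoked to those of ethanol dams, and ad libitum (AD) rats from a dam with free access to chow. After that day all dams ate chow, and no genetic change was made in any group. Each diet group was a single litter, so diet and litter cannot be told apart, and a p-value measures the spread between littermates.

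Lecticans are chondroitin sulfate proteoglycans that bind hyaluronan at one end and tenascins at the other, and link proteins of the Hapln family lock the lectican onto the hyaluronan chain. Around some neurons, above all the fast-spiking interneurons that contain parvalbumin, this meshwork condenses into a perineuronal net during postnatal life, when the plasticity of the juvenile brain declines. In the hippocampus such nets also surround pyramidal cells of the CA2 field. The same molecules occur in the loose matrix between cells and, with Bcan, Vcan, Tnr and Hapln2, around the nodes of Ranvier of myelinated axons.

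The 17 libraries held 10853947 to 17498392 counted fragments, as averages over 3 technical replicates. The 14 libraries of the study's final set (4 ET, 5 PF and 5 AD) enter all comparisons, and the other 3 (ET replicate 2, PF animal 11f6 and AD replicate 4) stood apart in summed choroid plexus markers, at 9480 to 11109 counts per 1000000 fragments (CPM) against 213 to 1725 CPM in the final set. Levels are given as CPM after scaling by the trimmed mean of M values, a unit in which levels of different genes cannot be compared because longer transcripts yield more fragments. The 7 hippocampal neuron markers were above 0 in every library, but their sum was lowest in ET replicate 1, at 601 CPM, and next in AD replicate 6, at 737 CPM, against 917 to 1306 CPM in the other 12 libraries of the final set. Prox1, a marker of dentate granule cells, was at 8.26 CPM in ET replicate 1 and 18.3 to 50.9 CPM in the other 13. Of the thalamic markers, Tcf7l2 lay between 10.8 and 26.5 CPM over the 17 libraries. The sex labels of 2 libraries, AD replicates 1 and 2, did not match their sex-linked transcripts, and the comparison of sexes therefore used ET and PF rats.

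All 10 genes were expressed in all libraries and passed the filter on low counts in every comparison. Counts per library ran from 22.3 fragments for Has3 to 8458 for Bcan, so that counting error is largest for Has3. In the sentences that follow, values stand in the order ET replicates 1, 3, 4 and 5, PF replicates 1, 2, 3 and 6 and PF animal 11f5, and AD replicates 1, 2, 3, 5 and 6.

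Aggrecan (Acan) is the lectican most closely tied to perineuronal nets. It was at 8.44, 12.9, 10.5 and 10.2 CPM in ET rats, 9.94, 9.84, 11.8, 9.47 and 8.83 CPM in PF rats and 11.5, 10.8, 10.3, 12.2 and 9.74 CPM in AD rats. Both the lowest and the highest of the 14 values fell within the ET litter, and the ranges of the 3 groups overlapped. Brevican (Bcan), which astrocytes and oligodendrocyte lineage cells secrete, was the steadiest of the 10 genes, with a coefficient of variation of 6.48% over the 14 libraries. It measured 436, 439, 471 and 474 CPM in ET rats, 476, 412, 456, 481 and 429 CPM in PF rats and 509, 494, 465, 515 and 484 CPM in AD rats. The highest 4 of the 14 values were all from AD rats, although the lowest AD value lay inside both other ranges.

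Neurocan (Ncan), a lectican made by neurons and astrocytes and most abundant in the developing brain, varied the most from the lowest to the highest library, by 2.04-fold. Its levels were 112, 196, 189 and 169 CPM in ET rats, 202, 179, 229, 183 and 184 CPM in PF rats and 191, 194, 181, 221 and 174 CPM in AD rats. ET replicate 1 was far below the other libraries and ET replicate 5 just below every control, while ET replicates 3 and 4 lay among the controls. ET replicate 1 was also the library with the lowest sum of hippocampal neuron markers and with the least Slc1a2, an astrocyte glutamate transporter, at 115 CPM against 318 to 644 CPM in the other 13. Versican (Vcan), which is made in part by oligodendrocyte precursors, ranged from 42.5 CPM in ET replicate 1 to 68.2 CPM in ET replicate 3, with group means of 54.9 ± 10.5 CPM in ET (SD, n = 4), 49.1 ± 6.06 CPM in PF (SD, n = 5) and 50.8 ± 3.62 CPM in AD rats (SD, n = 5).

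**Figure D1:**
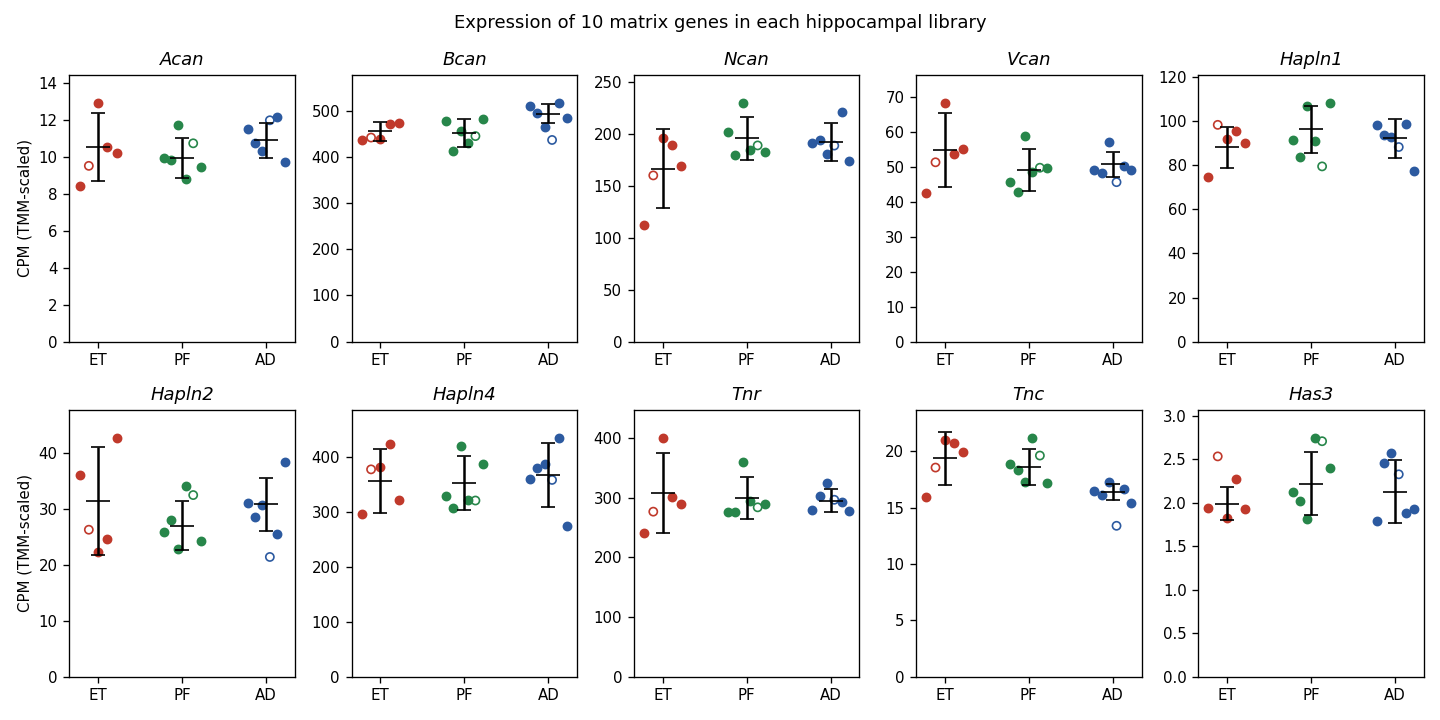
Level of each of the 10 genes in every library, in CPM (y axis, linear from 0), by diet group (x axis). Filled points are the 14 libraries of the final set, open points the 3 libraries the study left out, and bars the mean and SD of the filled points. In each panel the filled points of the 3 groups overlap, and the widest spread within a group relative to its mean is that of Hapln2 in ET rats, from 22.2 to 42.6 CPM (coefficient of variation 30.7%).

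Among the link proteins, Hapln1 stabilises nets in which aggrecan is the main lectican. It had group means of 88.1 ± 9.27 CPM in ET (SD, n = 4), 96.2 ± 10.6 CPM in PF (SD, n = 5) and 92.2 ± 8.77 CPM in AD rats (SD, n = 5). Hapln4, a partner of brevican at inhibitory synapses, was at 296, 381, 423 and 320.4 CPM in ET rats, 327, 306, 419, 387 and 321 CPM in PF rats and 359, 379.7, 387, 433 and 274 CPM in AD rats. Every group spanned low and high libraries in a similar way. Hapln2, the link protein of the nodes of Ranvier made by oligodendrocytes, had the largest coefficient of variation of the set, 20.9%, which was larger than that of 82.8% of the 15309 genes with a mean of at least 1 CPM. It measured 36.1, 22.2, 24.7 and 42.6 CPM in ET rats, 25.8, 28.03, 22.9, 24.2 and 34.1 CPM in PF rats and 31.1, 28.6, 30.7, 25.5 and 38.3 CPM in AD rats.

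Hapln2 tended to be high in the libraries with little Hapln4, and Hapln4 is the immediate neighbour of Ncan in the rat gene order. The stretches just upstream of these 3 genes are therefore shown, as the last 150 bases before the start of each gene in RefSeq's GRCr8 annotation, a newer assembly than the mRatBN7.2 on which fragments were counted. The regions are chr2:175794439-175794588 on the minus strand for Hapln2, chr16:19375174-19375323 on the minus strand for Hapln4 and chr16:19335757-19335906 on the plus strand for Ncan. Capitals mark ACAAT or its reverse complement ATTGT, 1 of several forms found in the sites of SOX factors, a family that includes regulators of the oligodendrocyte lineage. Other forms, such as ACAAAG, were neither searched for nor marked.
Hapln2: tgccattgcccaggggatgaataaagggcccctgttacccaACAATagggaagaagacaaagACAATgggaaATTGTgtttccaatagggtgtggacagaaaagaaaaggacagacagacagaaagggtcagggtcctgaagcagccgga
Hapln4: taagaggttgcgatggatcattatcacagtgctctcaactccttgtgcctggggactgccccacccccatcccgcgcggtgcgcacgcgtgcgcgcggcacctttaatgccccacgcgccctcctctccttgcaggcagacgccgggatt
Ncan: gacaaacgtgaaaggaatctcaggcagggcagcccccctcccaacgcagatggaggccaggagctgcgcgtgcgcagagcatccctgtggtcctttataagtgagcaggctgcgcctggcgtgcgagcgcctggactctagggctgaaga
The Hapln2 stretch held 3 matches, while neither the Hapln4 nor the Ncan stretch held any. Of 33469 stretches of the same length in the RefSeq table, 19.6% held at least 1 match and 0.430% held 3 or more. The letters CG occurred 1 time upstream of Hapln2, 14 times upstream of Hapln4 and 9 times upstream of Ncan, against a median of 4 over all stretches, of which 29.0% held 1 or fewer and 16.3% held 14 or more. A match of letters is a description of the sequence and shows no binding.

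Tenascin-R (Tnr) cross-links lecticans in the net, and it was at 241, 400.2, 301 and 290.1 CPM in ET rats, 276, 277, 360.4, 289 and 295 CPM in PF rats and 280.4, 302, 325, 293 and 278 CPM in AD rats. As for Acan and Vcan, ET replicate 1 was the lowest and ET replicate 3 the highest of the 14 libraries. Tenascin-C (Tnc), an astrocyte glycoprotein of the immature matrix, was at 15.9, 21.0, 20.7 and 19.9 CPM in ET rats, 18.9, 18.4, 17.3, 17.2 and 21.2 CPM in PF rats and 16.5, 16.2, 17.3, 16.6 and 15.4 CPM in AD rats. With ET replicate 1 and PF replicate 6 as exceptions, the rats from liquid diet litters lay above the highest AD rat. Has3, an enzyme that spins out the hyaluronan backbone, was near the lower end of detection at 1.79 to 2.74 CPM, with means of 1.99 ± 0.193 CPM in ET (SD, n = 4), 2.22 ± 0.361 CPM in PF (SD, n = 5) and 2.13 ± 0.360 CPM in AD rats (SD, n = 5).

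The comparison of ET with PF rats asks how prenatal ethanol differs from the same liquid diet without it. None of the 10 matrix genes passed either threshold in edgeR's quasi-likelihood test: the study's threshold (an adjusted p, by the Benjamini-Hochberg method, under 0.01 together with a log2 fold change beyond 1.5 in either direction), which 2.17% of the 16068 genes tested passed, or an adjusted p below 0.05 at any fold, which 4.13% passed. At an unadjusted p below 0.05 there were also 0 of the 10, against 11.9% of all genes tested, and by DESeq2 0 passed either threshold. A background of 4.13% is less than 1 gene in 10, so a count of 0 does not set the matrix genes apart from the rest. The estimates were small on both sides of 0. Ncan was the lowest, at -0.24 on the log2 scale (SE 0.15, adjusted p = 0.65, edgeR), and Hapln2 the highest at 0.21 (SE 0.19, adjusted p = 0.83, edgeR). Both sizes turned on single libraries: Ncan was -0.09 without ET replicate 1, and Hapln2 0.03 without ET replicate 5, 0.14 without ET replicate 1 and 0.35 without ET replicate 3. The median log2 fold change of the 10 genes was 0.02, against 0.01 over all genes tested, and 7 of the 10 were above 0.

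How large a change these data leave possible is given by the 95% intervals of the fold changes. Over the 10 genes in ET against PF, the lowest bound was a log2 fold change of -0.57, for Ncan, and the highest 0.64, for Hapln2, so that every interval excluded a log2 fold change of 1.5 in either direction. The study's methods word this limit as a fold change of 1.5 without the logarithm, and on that reading the interval of Hapln2, which reached a fold of 1.56, did not exclude it, while those of the other 9 genes did. The narrowest interval belonged to Bcan, from -0.13 to 0.15. Acan, the net's principal lectican, had a log2 fold change of 0.08 with an interval from -0.20 to 0.36, and Tnr one of 0.04 with an interval from -0.27 to 0.35.

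**Figure D2:**
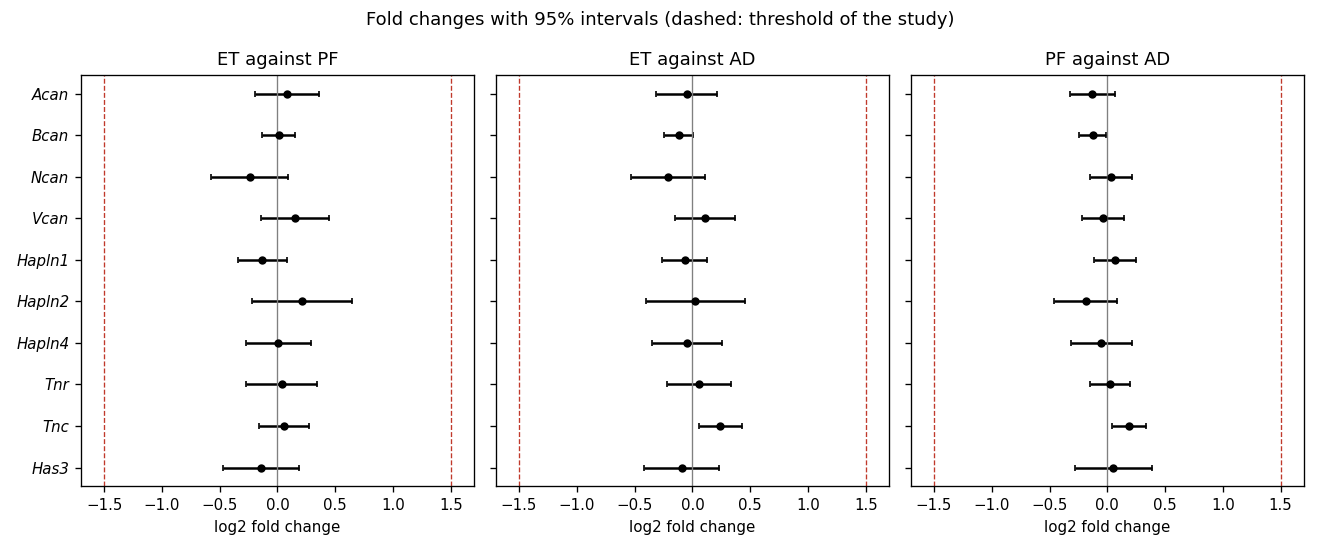
Log2 fold changes (x axis) of the 10 genes (rows) in the 3 comparisons of diets, from edgeR on the 14 libraries. Points are estimates, bars their 95% intervals, and dashed lines mark a log2 fold change of 1.5 in either direction. All intervals end well inside the dashed lines, those of Tnc lie above 0 in both comparisons with AD rats, and that of Bcan lies below 0 in PF against AD.

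Against AD rats, whose dam had chow without limit, ET rats again showed no matrix gene past either threshold, and 0.0127% of 15749 genes passed each of them in that comparison. The estimates ran from -0.21 for Ncan (SE 0.15) to 0.24 for Tnc (SE 0.08), with a median of -0.05 over the 10 genes and 0.003 over all genes tested. With 1 library left out, Ncan ran from -0.30 to -0.06 and Tnc from 0.20 to 0.32. In PF against AD rats, 2.05% of 15960 genes passed the study's threshold and 5.17% had an adjusted p below 0.05, while 0 of the 10 matrix genes passed either. DESeq2 also called 0 of the 10 in both comparisons. At an unadjusted p below 0.05 there was 1 matrix gene in ET against AD, where 2.74% of all genes tested were, and 2 in PF against AD, where 16.4% were.

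Tnc and Bcan stood closest to a call, in opposite directions. Tnc was on average 19.4 ± 2.36 CPM in ET (SD, n = 4), 18.6 ± 1.61 CPM in PF (SD, n = 5) and 16.4 ± 0.684 CPM in AD rats (SD, n = 5). Its log2 fold change was 0.24 in ET against AD (SE 0.08, adjusted p = 1.0, edgeR) and 0.19 in PF against AD (SE 0.07, adjusted p = 0.16, edgeR). Leaving out each library in turn kept the latter between 0.13 and 0.21, with adjusted p from 0.086 to 0.31 (edgeR). With all 17 libraries it was 0.24 (adjusted p = 0.067, edgeR), AD replicate 4 being the lowest of the 17 at 13.4 CPM. Bcan was 455 ± 20.2 CPM in ET (SD, n = 4), 451 ± 30.1 CPM in PF (SD, n = 5) and 494 ± 20.1 CPM in AD rats (SD, n = 5). It had log2 fold changes of -0.12 in ET against AD (SE 0.06, adjusted p = 1.0, edgeR) and -0.13 in PF against AD (SE 0.05, adjusted p = 0.27, edgeR). Both comparisons share the AD litter, so their similar estimates are not separate pieces of evidence.

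In no comparison of diets did the 2 groups separate without overlap for any of the 10 genes. Of the 16530 genes with at least 100 counts over the 14 libraries, 6.36% separated in that way between ET and PF, 1.29% between ET and AD and 6.35% between PF and AD. Males and females of the ET and PF litters, compared with diet as a covariate, also gave 0 of the 10 genes past an adjusted p of 0.05 in edgeR, where 0.0425% of 16484 genes passed, 0 at an unadjusted p below 0.05, and 0 by DESeq2. Log2 fold changes of males over females ran from -0.13 for Acan (SE 0.13) to 0.28 for Has3 (SE 0.13, adjusted p = 1, edgeR).

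Of 78 other genes of the matrix tested in ET against PF, Adamts4 and Chpf2 passed an adjusted p of 0.05 in edgeR, a share of 2.56% against 4.13% of all genes. Lists of genes for hyaluronan metabolism, chondroitin sulfate synthesis, matrix proteases and their inhibitors, net receptors and ligands, and other proteoglycans held 11, 21, 13, 11 and 22 tested genes in ET against PF. Past an adjusted p of 0.05 were 1 gene of chondroitin sulfate synthesis, which was lower, and 1 protease, which was higher, and 0 genes of the other 3 lists. The median log2 fold changes of the 5 lists were 0.02, 0.04, 0.15, -0.05 and -0.07. At an unadjusted p below 0.05, the 3 lists without a call held 1 lower gene of hyaluronan metabolism, 1 higher net receptor or ligand, and 1 higher and 1 lower gene of the other proteoglycans, and DESeq2 gave the same 2 calls in the 5 lists as edgeR. In ET against AD 0 genes of any of the 5 lists passed in edgeR or DESeq2, and 0 had an unadjusted p below 0.05. In PF against AD 1 protease passed in edgeR, and DESeq2 added the proteoglycan Spock2, which was higher.

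The protease was Adamts4 in both cases, an aggrecanase that cuts lecticans and that oligodendrocytes also make. It was at 62.3, 60.2, 53.0 and 67.3 CPM in ET rats, 43.0, 47.7, 46.8, 53.4 and 44.7 CPM in PF rats and 54.1, 64.2, 58.6, 53.7 and 68.6 CPM in AD rats. PF rats were the low group: in the final set every AD rat was above every PF rat, and the ET and PF ranges touched only at PF replicate 6, which exceeded ET replicate 4. Of the genes with at least 100 counts, 6.35% separated between PF and AD. AD replicate 4, outside that set, was at 49.6 CPM, below PF replicate 6. The log2 fold change was 0.36 in ET against PF (SE 0.08, adjusted p = 0.036, edgeR), -0.34 in PF against AD (SE 0.08, adjusted p = 0.029, edgeR) and 0.02 in ET against AD (SE 0.09, adjusted p = 1.0, edgeR). With 1 library left out, the log2 fold change stayed between 0.31 and 0.43 in ET against PF and between -0.39 and -0.28 in PF against AD, while 7 of 9 fits of ET against PF and 6 of 10 of PF against AD had an adjusted p above 0.05 (edgeR, up to 0.12 and 0.083). The first 2 comparisons share the PF litter.

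Of 7 markers of myelinating oligodendrocytes, 2 passed an adjusted p of 0.05 in ET against PF in edgeR, both higher, and 6 were higher at an unadjusted p below 0.05, with a median log2 fold change of 0.38. In PF against AD 5 were lower at that p, with a median of -0.29. The summed level of the 7 was 20408 to 26250 CPM in ET, 14831 to 20298 CPM in PF and 17355 to 24555 CPM in AD rats, and none of the 7 was at 0. Ermn, a late oligodendrocyte protein, rose in ET against PF by 0.38 on the log2 scale (SE 0.09, adjusted p = 0.048, edgeR); DESeq2 called 5 of the 7, all higher. The part of myelinating cells in the Adamts4 difference was not tested, and in whole tissue fewer cells of a type and less RNA per cell cannot be told apart. Among the matrix genes, Hapln2 comes from the same cells, and its difference of 0.21 between ET and PF had an interval from -0.22 to 0.64.

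Chpf2, which helps extend the chondroitin sulfate chains that lecticans carry, fell in ET against PF by 0.28 on the log2 scale (SE 0.06, adjusted p = 0.031, edgeR). It was at 36.2, 38.6, 38.01 and 38.3 CPM in ET rats and at 47.8, 44.5, 47.6, 41.1 and 48.8 CPM in PF rats. In the final set these groups did not overlap, which held for 6.36% of the genes with at least 100 counts. ET replicate 2, outside that set, was at 42.3 CPM, above PF replicate 6. AD rats were at 37.2, 39.4, 37.5, 40.8 and 44.7 CPM and overlapped both groups, with replicates 1 and 3 in the ET range and replicate 6 in the PF range. Means were 37.8 ± 1.07 CPM in ET (SD, n = 4), 46.0 ± 3.16 CPM in PF (SD, n = 5) and 39.9 ± 3.06 CPM in AD rats (SD, n = 5), so that PF rats had the highest. The log2 fold change was 0.21 in PF against AD (SE 0.07, adjusted p = 0.12, edgeR), where 2 of 10 fits with 1 library left out had an adjusted p below 0.05, and -0.08 in ET against AD (SE 0.07, adjusted p = 1.0, edgeR). In ET against PF, leaving out 1 library raised its adjusted p above 0.05 in 8 of 9 fits (edgeR, up to 0.093), and the log2 fold change stayed between -0.32 and -0.26. Among the remaining partners of the 10 genes, the hyaluronan synthase Has2 stood at 0.45 on the log2 scale in ET against PF (SE 0.20, adjusted p = 0.45, edgeR) at a level near 1 CPM, and its relative Has1 one of 0.09 (SE 0.16). The link protein Hapln3, which lies beside Acan in the gene order, had one of 0.13 (SE 0.21), the proteoglycan Cspg4 of oligodendrocyte precursors one of -0.10 (SE 0.10) and the phosphatase Ptprz1, a receptor for chondroitin sulfate and Tnr, one of -0.09 (SE 0.14).

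Markers of the cells that wear nets gave no call apart from the CA2 list. Of 7 markers of parvalbumin interneurons, 0 passed an adjusted p of 0.05 in the 3 diet comparisons in edgeR or DESeq2 (at an unadjusted p below 0.05, 3 were lower in PF against AD and 0 passed elsewhere), and Pvalb itself differed by 0.22 on the log2 scale in ET against PF (SE 0.23, adjusted p = 0.86, edgeR). In the CA2 list, Cacng5 was lower in PF than in AD rats, with a log2 difference of -0.53 (SE 0.10, adjusted p = 0.0075, edgeR), and Map3k15 was higher in PF than in both other litters, with log2 fold changes of -3.08 in ET against PF (SE 0.11, adjusted p = 2.6e-08, edgeR) and 3.31 in PF against AD (SE 0.09, adjusted p = 1.3e-10, edgeR). The other 5 CA2 markers passed in neither comparison, and DESeq2 also called Cacng5 in ET against PF, as higher. Of the 6 markers of oligodendrocyte precursors, 0 passed in ET against PF in edgeR or DESeq2, although 4 were higher at an unadjusted p below 0.05 (median log2 fold change of the list 0.23), and 4 were lower at that p in PF against AD (median -0.19). Cspg4 of this list went the other way, at -0.10 in ET against PF and 0.05 in PF against AD. Olig1 and Olig2 were lower in PF than in AD rats (log2 fold changes of -0.35 and -0.34, adjusted p = 0.030 and 0.045, edgeR), and of the myelin list Mag was lower by -0.40 (adjusted p = 0.037, edgeR), to which DESeq2 added Mbp, also lower. The thalamic marker Tnnt1 was higher in ET than in PF rats, by 1.60 (adjusted p = 0.0094, edgeR), and lower in PF than in AD rats, by -1.80 (adjusted p = 0.00074, edgeR). All 6 thalamic markers tested in ET against PF had a log2 fold change above 0, with a median of 0.58, 3 of them at an unadjusted p below 0.05, and DESeq2 called Tcf7l2 as well as Tnnt1. No marker of astrocytes, hippocampal neurons, choroid plexus, vascular cells, meningeal fibroblasts or microglia passed in any of the 3 in edgeR, and in DESeq2 the collagen gene Col1a1 was lower in PF than in AD rats. At an unadjusted p below 0.05, 4 choroid plexus markers were higher in ET than in AD rats and 4 in PF than in AD rats, and the other 5 lists held 0 to 2 in each comparison.

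Within the litters, some of the 10 genes varied together from rat to rat. After each diet's mean of log2(CPM + 1) was subtracted, 30 of the 45 pairs of genes had a positive Pearson's r over the 14 libraries, with a median of 0.35. A permutation test that shuffled libraries within diets, adjusted over the 45 pairs, gave 5 pairs below 0.05, of which 4 were positive. Vcan and Tnr had an r of 0.95 (rho 0.79, adjusted permutation p = 0.0070 for r and 0.040 for rho), Hapln1 and Hapln4 an r of 0.90 (rho 0.89, adjusted permutation p = 0.0040 and 0.013), and Acan and Ncan an r of 0.88 (rho 0.83, adjusted permutation p = 0.0040 and 0.020). Without the 2 libraries farthest from the median of the first gene, r was 0.90 for Vcan and Tnr, 0.82 for Hapln1 and Hapln4, and 0.80 for Acan and Ncan. Neither gene of these 3 pairs lies beside the other in the genome.

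Ncan and Hapln4, which do lie side by side, had an r of 0.70 (rho 0.71, adjusted permutation p = 0.037 and 0.066; 0.66 without the 2 farthest libraries). Of the other neighbours within the set, Vcan and Hapln1 had an r of 0.63 (adjusted permutation p = 0.11), and Bcan and Hapln2 one of -0.23 (adjusted permutation p = 0.57). Hapln2 and Hapln4 were inversely related, with an r of -0.81 (rho -0.86, adjusted permutation p = 0.029 and 0.030; -0.80 without the 2 farthest libraries). In left hippocampi alone, 11 of the 14 libraries, these 5 correlations were 0.96, 0.90, 0.87, 0.80 and -0.82 in the order given.

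**Figure D3:**
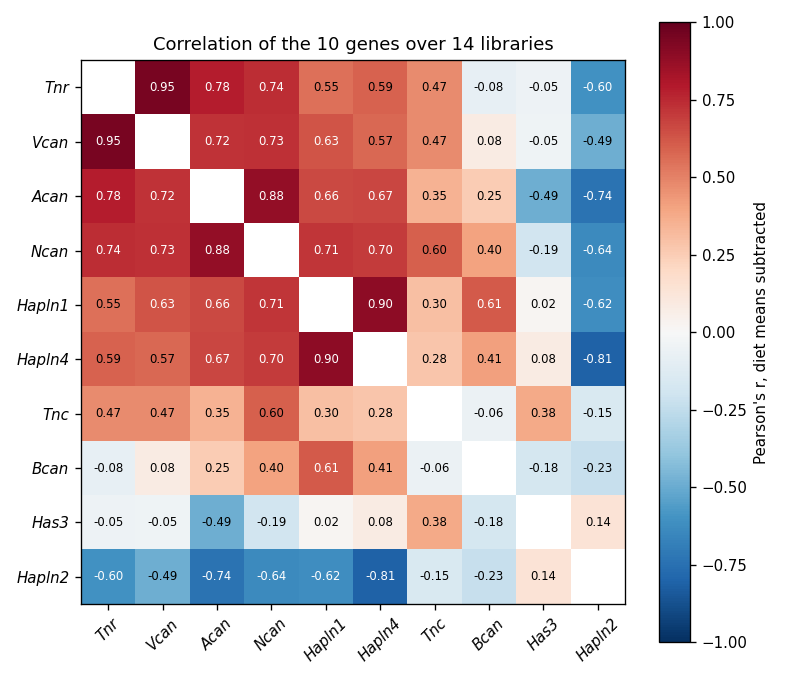
Pearson's r between each pair of the 10 genes (rows and columns) over the 14 libraries, from log2(CPM + 1) with the diet means subtracted, where red is positive and blue negative. Tnr, Vcan, Acan, Ncan, Hapln1 and Hapln4 form a block of positive values, up to 0.95 for Tnr and Vcan, and Hapln2 is negative with each of them, down to -0.81 for Hapln4.

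The genes whose levels followed each member most closely, among 15913 genes and by the same diet-centred r over 14 libraries, were seldom matrix genes. Acan was followed by Mprip and Unc80 (r of 0.94 and 0.94), Bcan by Gal3st4 and Lman2 (0.93 and 0.92), Ncan by Itga4 (0.97), and Hapln1 by Prdm8 and Ncdn (0.97 and 0.96). For Hapln2 they were Srsf9 and Carns1 (0.94 and 0.93), for Hapln4 Rab40b and Map2k1 (0.98 and 0.98), and for Tnr Anapc1 and Mga (0.97 and 0.97). Vcan had Tnr first and Mga second (0.95 and 0.94). Tnc and Has3 had looser companions, LOC120097510 and Pofut1 for Tnc (0.90 and 0.90) and LOC100359752 and Cat for Has3 (0.81 and 0.79). Each of these is an extreme among 15913 coefficients, and all of them rest on the same libraries.

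A set of 7 relations, chosen with earlier results of these data known, was examined with the same diet-centred r. They join matrix genes to markers of the cells that make or carry them, except for Acan and Hapln4, a pair of matrix genes. Here the 2 farthest libraries are those farthest from the median of the marker, the second gene named. Acan and Pvalb, the calcium-binding protein that names the interneurons most often wrapped in nets, had an r of -0.88 (rho -0.78, adjusted permutation p = 0.012 for r and 0.030 for rho, over 7 relations). Pvalb itself was 80.7, 32.6, 41.4 and 50.2 CPM in ET rats, 40.6, 47.2, 33.5, 51.7 and 46.7 CPM in PF rats and 55.2, 47.1, 52.3, 48.1 and 59.8 CPM in AD rats. ET replicate 1 joined the highest Pvalb to the lowest Acan and ET replicate 3 the lowest Pvalb to the highest Acan, and without these 2 libraries r was -0.72. Hapln4 was also inversely related to Pvalb, with an r of -0.63 (rho -0.69, adjusted permutation p = 0.028 and 0.059; -0.65 without the 2 farthest libraries). Pvalb did not stand for its whole list: of the 7 parvalbumin interneuron markers, 4 had a negative and 3 a positive r with Acan. The negative ones were Pvalb (-0.88), Syt2 (-0.69), Lhx6 (-0.43) and Kcnc1 (-0.33). The positive ones were Gad2 (0.84), an enzyme of GABA synthesis in all inhibitory neurons, Erbb4 (0.58) and Gad1 (0.28). With Hapln4 the 7 ran from -0.66 for Syt2 to 0.70 for Gad2.

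Acan and Hapln4 were positively related, with an r of 0.67 (rho 0.64, adjusted permutation p = 0.028 and 0.059 over the 7 relations, but 0.088 for r over the 45 pairs; 0.51 without the 2 libraries farthest from the median of Hapln4 and 0.66 without those farthest from that of Acan). Vcan and Pdgfra, the marker of oligodendrocyte precursors, had an r of 0.79 (rho 0.57, adjusted permutation p = 0.028 and 0.11), which was 0.52 without the 2 farthest libraries, so that the relation rests largely on them. Of the 6 markers of oligodendrocyte precursors, 3 had a positive and 3 a negative r with Vcan. The positive ones were Pdgfra (0.79), Cspg4 (0.52) and Gpr17 (0.31), and the negative ones Olig1 (-0.46), Olig2 (-0.30) and Sox10 (-0.25). Bcan and the astrocyte water channel Aqp4 had an r of 0.55 (rho 0.64, adjusted permutation p = 0.052 and 0.059). Hapln2 and the myelin protein Mbp had an r of 0.44 (adjusted permutation p = 0.21), and Hapln4 and the thalamic factor Tcf7l2 one of 0.35 (adjusted permutation p = 0.30). With all 17 libraries, 2 of the 7 relations were below an adjusted p of 0.05 against 4 with the final set: Acan with Pvalb at -0.83, and Bcan with Aqp4 at 0.61.

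Broader differences between libraries ran alongside these relations. The summed level of 73 genes for ribosomal proteins, a measure chosen after the data were seen, was 2241 CPM in ET replicate 1 and 1650 CPM in ET replicate 3, the rats at the 2 ends for Acan, Vcan and Tnr. The latter was the lowest of the 14 libraries, while the highest sum, 2269 CPM, was that of PF replicate 6, whose Tnr of 289 CPM was not extreme. The sum averaged 1983 ± 252 CPM in ET (SD, n = 4), 1928 ± 232 CPM in PF (SD, n = 5) and 1989 ± 120.2 CPM in AD rats (SD, n = 5). Tnr was lower where this sum was higher, with an r of -0.80 (rho -0.67, adjusted permutation p = 0.042 and 0.13 over 11 relations; -0.56 without the 2 libraries farthest from the median of the sum), and Pvalb was higher, with an r of 0.78 (rho 0.70, adjusted permutation p = 0.042 and 0.13; 0.61 without the 2 farthest libraries). For Acan r was -0.71 (adjusted permutation p = 0.076), for Vcan -0.62 and for Ncan -0.60 (both adjusted permutation p = 0.16). As a covariate in the diet comparisons the ribosomal protein sum left 0 of the 10 genes past either threshold.

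The hippocampal neuron markers, taken as a sum, also moved with 7 of the matrix genes. With their sum, a relation also examined after the data were seen, 9 of the 10 genes had a positive r and 7 of the 10 an adjusted permutation p below 0.05, over 10 relations. Ncan had an r of 0.89 (rho 0.82, adjusted permutation p = 0.0040 for r and 0.0045 for rho), Hapln1 of 0.87 (rho 0.77, adjusted permutation p = 0.0040 and 0.0045), Hapln4 of 0.86 (rho 0.89, adjusted permutation p = 0.0018 and 0.00090) and Acan of 0.84 (rho 0.74, adjusted permutation p = 0.0040 and 0.014). For Tnr r was 0.82 (rho 0.91, adjusted permutation p = 0.0040 and 0.00090), for Vcan 0.81 (rho 0.70, adjusted permutation p = 0.0084 and 0.016) and for Hapln2 -0.71 (rho -0.80, adjusted permutation p = 0.030 and 0.012). These 7 genes thus followed the summed neuron markers from rat to rat, Hapln2 inversely. Without ET replicate 1 and AD replicate 6, the 2 libraries farthest from the median of the sum, the 6 positive values lay between 0.73 and 0.83 and that of Hapln2 was -0.71. Bcan, Tnc and Has3 gave no call, with r of 0.28, 0.57 and 0.01. The highest sums were those of PF replicate 3, at 1306 CPM, and ET replicate 3, at 1286 CPM. Markers at high levels weigh most in the sum: in ET replicate 3 Zbtb20 was at 478.5 CPM and Prox1 at 50.9 CPM. Relations with the single markers of this list were not tested. The part of the neuron markers and of the ribosomal protein sum in the correlations among the matrix genes was not tested.

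**Figure D4:**
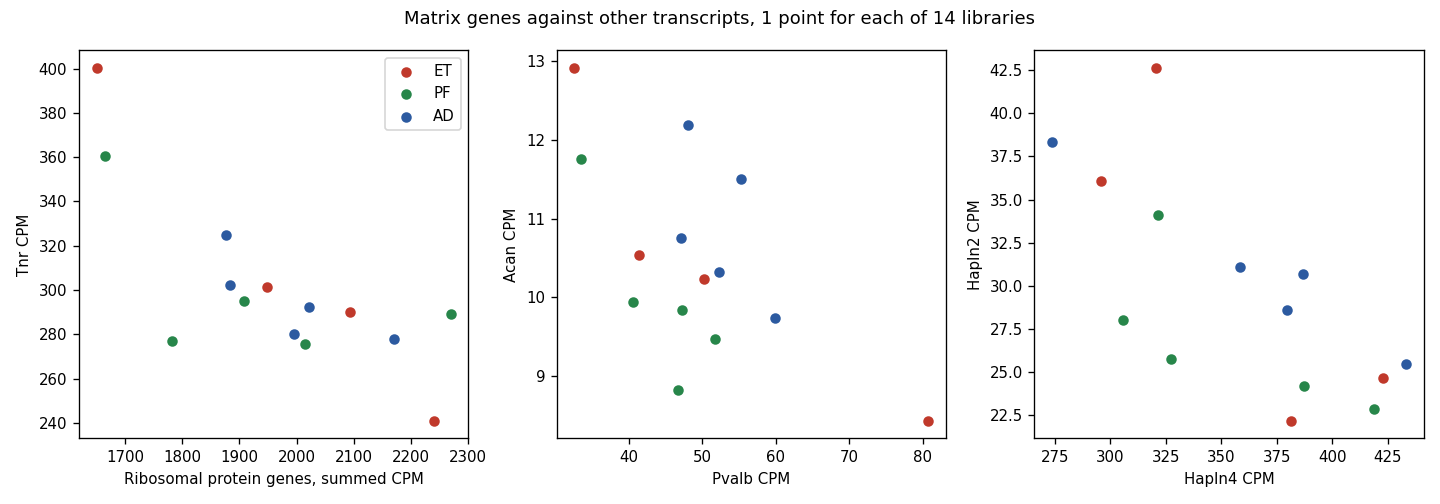
Tnr against the summed ribosomal protein genes, Acan against Pvalb and Hapln2 against Hapln4 (all axes in CPM, not starting at 0), with 1 point for each of the 14 libraries coloured by diet. All 3 panels slope downward, with diet-centred r of -0.80, -0.88 and -0.81. ET replicates 1 and 3 lie at the extremes of both axes in the Acan and Pvalb panel, and in the Tnr panel the highest ribosomal protein sum is that of PF replicate 6.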

How the data were processed

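Stranded mRNA libraries were sequenced in pairs. The authors trimmed reads with fastp, mapped them with Bowtie2 2.4.2 to mRatBN7.2 and counted fragments on exons with featureCounts 2.0.1 at a minimum mapping quality of 10, with reads allowed to count for more than 1 feature. Strand setting and annotation release are not given in the sources used here. The deposited values are expected counts in form: fragments averaged by the authors over 3 technical replicates, not normalized, with 10853947 to 17498392 per library. All are multiples of 1/3.

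Libraries were grouped by diet from the labels. PF males 11f5 and 11f6 go by animal name, since their labels do not say which replicate number is whose. No pair of libraries of a diet agreed within sampling noise (smallest chi-square per gene 2.87 over 40 pairs). Counts were rounded, filtered with filterByExpr, scaled by TMM and tested with edgeR 4.0.16 (quasi-likelihood F test, R 4.3.3), each comparison over its own groups, with Benjamini-Hochberg adjustment over all genes tested. The SE is the log2 fold change divided by the square root of F. For Has3 this SE and its interval are narrower than its p-value implies: in males against females 0.28 had an SE of 0.13 but an unadjusted p of 0.12 (edgeR). The fits were tested on simulated data. CPM were scaled by TMM over 17 libraries. Correlations used log2(CPM + 1) and 100000 permutations within diets. Intervals cover the spread between libraries.

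The 10 genes and all lists were chosen with earlier results of these data known. Named genes are the 10, the matrix genes past an adjusted p of 0.05, Has1, Has2, Hapln3, Cspg4, Ptprz1, markers of the lists and the 2 genes most like each member. Some genes under this rule are not reported here. Alternatives were DESeq2 1.42.0, median-of-ratios scaling, no filter, a fit of 3 groups, sex as a covariate, left hippocampi alone, the replicate block, all 17 libraries, each library left out, and, added after the data were seen, the ribosomal protein sum as a covariate. The relations with that sum and with the summed hippocampal neuron markers were also added then. Sequences are RefSeq's (GRCr8), with entries for 9 of the 10 genes. Proteins were not used here.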

Additional observations from a re-analysis of the deposited data

Results flagged for a closer look

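In each diet group the highest and lowest library of each of the 10 genes were compared with the rest by Dixon's ratio of the gap to the range, and 3 of 30 groups passed the 95% critical value, where chance gives about 1.5 (1 in 20). Versican (Vcan) was high in AD replicate 3, at 57.1 CPM against 48.4 to 50.2 CPM in the other AD rats. This was the right hippocampus among the AD libraries. The link protein Hapln1 was low in AD replicate 6, at 77.2 CPM against 92.7 to 98.8 CPM in its littermates. The same library was also the lowest of its group for Hapln4 and the highest for Hapln2, and it had the lowest sum of hippocampal neuron markers of its group, at 737 CPM against 1067 to 1138 CPM in the other 4 AD rats of the final set. Tnr, the tenascin that cross-links lecticans, was high in PF replicate 3, at 360.4 CPM against 276 to 295 CPM in the other PF rats, and this library had the lowest summed ribosomal protein genes of its group, at 1665 CPM.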

How the results depend on the processing

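The count of 0 of the 10 genes held in all 124 alternative counts. Of 564 alternative log2 fold changes of the 10 genes, 38 changed sign and 0 crossed an adjusted p of 0.05; the cause was not tested. In ET against PF, Tnr became -0.019 in left hippocampi alone, and with 1 library left out Acan ran from -0.032 to 0.17, Bcan from -0.023 to 0.033, Hapln4 from -0.083 to 0.085 and Tnr from -0.12 to 0.14. In ET against AD, Acan ran from -0.16 to 0.040, Vcan from -0.011 to 0.21, Hapln1 from -0.12 to 0.0025, Hapln2 from -0.16 to 0.16, Hapln4 from -0.14 to 0.029 and Tnr from -0.094 to 0.16. In PF against AD, Vcan was 0.033 in left hippocampi alone and Tnr -0.010 with the ribosomal protein sum as a covariate, and with 1 library left out Ncan ran from -0.035 to 0.084, Vcan from -0.12 to 0.0069, Hapln4 from -0.14 to 0.014, Tnr from -0.054 to 0.058 and Has3 from -0.043 to 0.12. Of 385 alternative values of the other matrix genes, 12 changed sign: in left hippocampi alone Cspg4 became 0.021 in ET against PF and -0.048 in PF against AD, and with 1 library left out Hapln3 ran from -0.14 to 0.25 and Ptprz1 from -0.21 to 0.034 in ET against PF, and Has1 from -0.16 to 0.035, Hapln3 from -0.012 to 0.38, Ptprz1 from -0.062 to 0.18 and Adamts4 from -0.039 to 0.081 in ET against AD. Adamts4 and Chpf2 lost their calls in ET against PF with sex as a covariate (adjusted p = 0.064 and 0.060, edgeR), at log2 fold changes of 0.36 and -0.28, and Adamts4 in left hippocampi alone (adjusted p = 0.063, and 0.071 in PF against AD, edgeR), at 0.38 and -0.37. With all 17 libraries, 2 of the 7 relations with markers passed instead of 4, and with median-of-ratios scaling 5, Bcan with Aqp4 being added (adjusted permutation p = 0.041).

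Replicate numbers are shared by different animals and did not pair them: same-numbered deviations correlated at -0.02 and 0.63 in ET against PF, -0.29 to 0.13 in ET against AD and -0.03 to 0.07 in PF against AD. The fits with the replicate block also left out PF animal 11f5, which has no replicate number, so 2 choices changed at once in the comparisons with PF rats. The final libraries shared 2 numbers in ET against PF, 3 in ET against AD and 4 in PF against AD, and the blocked estimates of diet rest on those rats. With the replicate block, 197 genes passed the study's threshold in ET against PF against 349, and 359 an adjusted p of 0.05 against 664. Of the 10 matrix genes 0 passed. Under the block Adamts4 (0.45, adjusted p = 0.23, edgeR) and Chpf2 (-0.35, adjusted p = 0.37, edgeR) lost their calls in ET against PF, and Ncan was -0.54. Acan was -0.042, Bcan -0.095, Hapln4 -0.15 and Tnr -0.025 in ET against PF, Hapln4 0.046 and Has3 -0.071 in PF against AD, and Has1 0.14 and Ptprz1 -0.070 in ET against AD, where 0 genes in place of 2 passed the study's threshold. Over all genes, leaving out the filter gave 493 genes in PF against AD in place of 327, and in ET against AD an adjusted p below 0.05 was reached by 11 genes in DESeq2, 6 with all 17 libraries and 5 in a fit of the 3 groups, in place of 2. Between 2 and 4 genes did so in ET against AD with 1 library left out. Depth limits Has3, at 22.3 to 42 averaged fragments per library, the most.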
